A study of Rattus norvegicus with 32 samples.

Results

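Transcripts of 8 neuropeptide genes (Oxt, Avp, Crh, Trh, Nts, Cartpt, Gal and Adcyap1) were examined in 4 regions of the rat brain. The genes were chosen by name as peptides of the hypothalamus and of the stress response, with earlier results of these data known. They are 8 of the 28914 genes in the count files. The samples came from adult male Sprague-Dawley rats. They were taken from the nucleus accumbens (NAc) of the ventral striatum, from 2 parts of the hippocampus, the dentate gyrus (DG) and Ammon's horn (CA), and from the wall of the lateral ventricle, the subventricular zone (SVZ). Methamphetamine (METH) at 10 mg/kg, or saline (Sal), was injected into the peritoneum 4 times at intervals of 2 h, and the brains were dissected 24 h after the final dose. The RNA came from 1 hemisphere of each brain. Each region gave 4 METH and 4 Sal samples, 32 in all, which are named by region, treatment and replicate number. The NAc and SVZ were punched from slices and the DG and CA were scooped from the hippocampus, so a sample can include cells of the tissue beside it. The labels do not say which samples came from the same rat, so the p-values describe the spread between these samples. Total counts ranged from 11094002 to 21869773 per sample.

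Neuropeptides are made as longer precursors, cut by convertases in secretory granules and released to act on receptors coupled to G proteins. Oxytocin (Oxt) and vasopressin (Avp) are made mainly by magnocellular neurons of the hypothalamus, and corticotropin-releasing hormone (Crh) and thyrotropin-releasing hormone (Trh) drive the pituitary-adrenal and pituitary-thyroid axes. Neurotensin (Nts) and CART (Cartpt) are also made by neurons of the striatum and modulate dopamine transmission, galanin (Gal) is shared by many hypothalamic and brainstem neurons, and PACAP (Adcyap1) is a peptide of excitatory neurons with a role in stress.

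In the rn6 assembly, Oxt lies on chromosome 3 from 123106694 to 123107534 on the plus strand. Avp lies on the same chromosome from 123117492 to 123119460 on the minus strand, with 9957 bases between the genes. Crh (104459999 to 104461863) and Cartpt (30125249 to 30127269) lie on chromosome 2, and Trh lies on chromosome 4 from 124110716 to 124113242. Nts lies on chromosome 7 from 44111151 to 44121130, Gal on chromosome 1 from 218652917 to 218657925, and Adcyap1 on chromosome 9 from 121706979 to 121725716. The counts cover the exons of each gene, and reads were assigned without regard to strand.

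The sequences before the start sites of Oxt, Avp and Trh are shown because these genes gave the highest single values of the set, and because Oxt and Avp peaked in the same library. They are the 250 bases upstream of each start in RefSeq (GRCr8, a later assembly than that of the counts). The Oxt stretch is chr3:138235504-138235753 on the plus strand, the Avp stretch chr3:138248523-138248772 on the minus strand, and the Trh stretch chr4:126301763-126302012 on the minus strand. Capitals mark matches, on either strand, to AGGTCA (a site element of nuclear receptors), CGTCA (the core of a cAMP response element) or CACGTG (an E-box).
Oxt: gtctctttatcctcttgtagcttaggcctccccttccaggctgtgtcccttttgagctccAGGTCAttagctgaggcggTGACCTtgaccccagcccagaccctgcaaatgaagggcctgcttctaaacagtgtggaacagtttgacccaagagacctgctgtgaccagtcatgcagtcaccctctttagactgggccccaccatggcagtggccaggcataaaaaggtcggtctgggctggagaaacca
Avp: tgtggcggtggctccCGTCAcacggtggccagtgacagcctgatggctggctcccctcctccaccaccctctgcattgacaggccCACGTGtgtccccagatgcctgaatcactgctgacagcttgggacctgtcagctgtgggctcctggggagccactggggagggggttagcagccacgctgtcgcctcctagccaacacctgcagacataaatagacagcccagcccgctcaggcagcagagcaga
Trh: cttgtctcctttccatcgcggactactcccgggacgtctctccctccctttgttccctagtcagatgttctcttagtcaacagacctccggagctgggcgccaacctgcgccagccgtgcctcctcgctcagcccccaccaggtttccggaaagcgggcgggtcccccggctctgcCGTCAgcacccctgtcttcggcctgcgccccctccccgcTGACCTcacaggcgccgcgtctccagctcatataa
The Oxt stretch holds AGGTCA at 190 bases before the start on the plus strand and again at 171 bases on the other strand. The Avp stretch holds CGTCA at 235 and CACGTG at 165 bases, and the Trh stretch holds CGTCA at 74 and AGGTCA, on the opposite strand, at 35 bases before the start. Of the 8 genes, 7 have a promoter in the RefSeq table and Crh does not. CGTCA also occurs in the stretches of Nts, Gal and Cartpt. In Cartpt it is part of the palindrome TGACGTCA at 142 bases before the start, and the Adcyap1 stretch holds none of the motifs. Of 33469 rat promoters, 14.1% hold AGGTCA, 18.2% CGTCA, 5.59% CACGTG and 1.59% TGACGTCA in the same 250 bases. These matches describe letters and not binding.

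Several libraries carried markers of neighbouring tissue, and these values are given before the peptides because the same libraries held many of the highest peptide values. In NAc METH 3, the summed level of 14 genes of hypothalamic neurons was 114 CPM (reads scaled by the upper-quartile library size), against 2.15 to 7.56 CPM in the other 7 NAc samples. On total counts, before that scaling, 1 read is worth 0.0457 to 0.0901 CPM. The transcription factors Sim1, Otp and Fezf1, which mark developing and adult hypothalamic neurons, were at 36.1, 21.3 and 12.5 CPM there and at no more than 1.56, 1.24 and 0.652 CPM in the other NAc samples. Of the 14 genes, 11 were highest of all 32 samples in NAc METH 3, while Pmch was at 0 in every sample. The list of striatal medium spiny neurons, which make up most of the NAc, summed to 151 CPM in NAc METH 3 and to 1326 to 8068 CPM in the other 7 NAc samples. SVZ METH 3 had the second highest hypothalamic sum, 14.2 CPM, together with a choroid plexus list at 7975 CPM. A list of 9 thalamic genes, led by Prkcd and Tcf7l2, summed to 2088 CPM in SVZ Sal 1, 1827 CPM in SVZ METH 2 and 1215 CPM in SVZ METH 4, against 97.7 to 524 CPM in the other 5 SVZ samples. The library labelled DG Sal 3 had a striatal sum of 1631 CPM, against 159 to 364 CPM in the other 7 DG samples, and the lowest dentate granule sum of the DG, 49.0 CPM, next to DG Sal 2 at 50.8 CPM. Among saline samples, the dentate granule list had a higher median sum in the CA (263 CPM) than in the DG (75.6 CPM). The library names in the file headers also carry a number, whose meaning the labels do not give. In the NAc, DG and CA the same 8 numbers occur, and all 8 fall under the same treatment in the NAc and CA. In the DG 4 of them, those of Sal 1, Sal 2, METH 1 and METH 2, fall under the other treatment. Fits of METH on the members in the DG are given with and without these 4 libraries. The saline comparisons, the fits across regions, and the fits of receptor, processing and marker genes are given only with them. The 4 SVZ METH libraries carry 2 numbers, METH 1 and 2 sharing one and METH 3 and 4 the other, while the 4 SVZ Sal libraries carry 4. If a number stands for a rat, the SVZ METH group holds fewer rats than samples and its p-values are too small. The NAc, DG and CA samples would then come from the same rats, while the tests across regions took every sample as separate. Groups follow the labels in every comparison. In bulk tissue, more cells that make a peptide and more RNA in each cell cannot be told apart.

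Of the 8 genes, Oxt and Avp were close to 0 in most samples, with 3 reads or fewer in 21 and 14 of the 32 samples. Per kilobase of exon, the medians over the 32 samples were highest for Nts (10.1 CPM per kb) and Cartpt (7.80 CPM per kb). They were 2.96 CPM per kb for Adcyap1, 2.30 for Trh, 1.24 for Crh and 1.12 for Gal, and lowest for Avp (0.488) and Oxt (0.225). On the same scale the highest single samples were at 1622 CPM per kb for Oxt and 1142 for Avp, both in NAc METH 3, and at 105 CPM per kb for Trh in SVZ Sal 1. The order of the medians thus differed from that of the peaks, as Oxt had the lowest median and the highest peak. NAc METH 3 alone held 83.9% of all Oxt reads and 93.4% of all Avp reads of the 32 samples. The plot of levels by sample shows these single points above groups that were otherwise near the bottom of the scale.

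**Figure D1:**
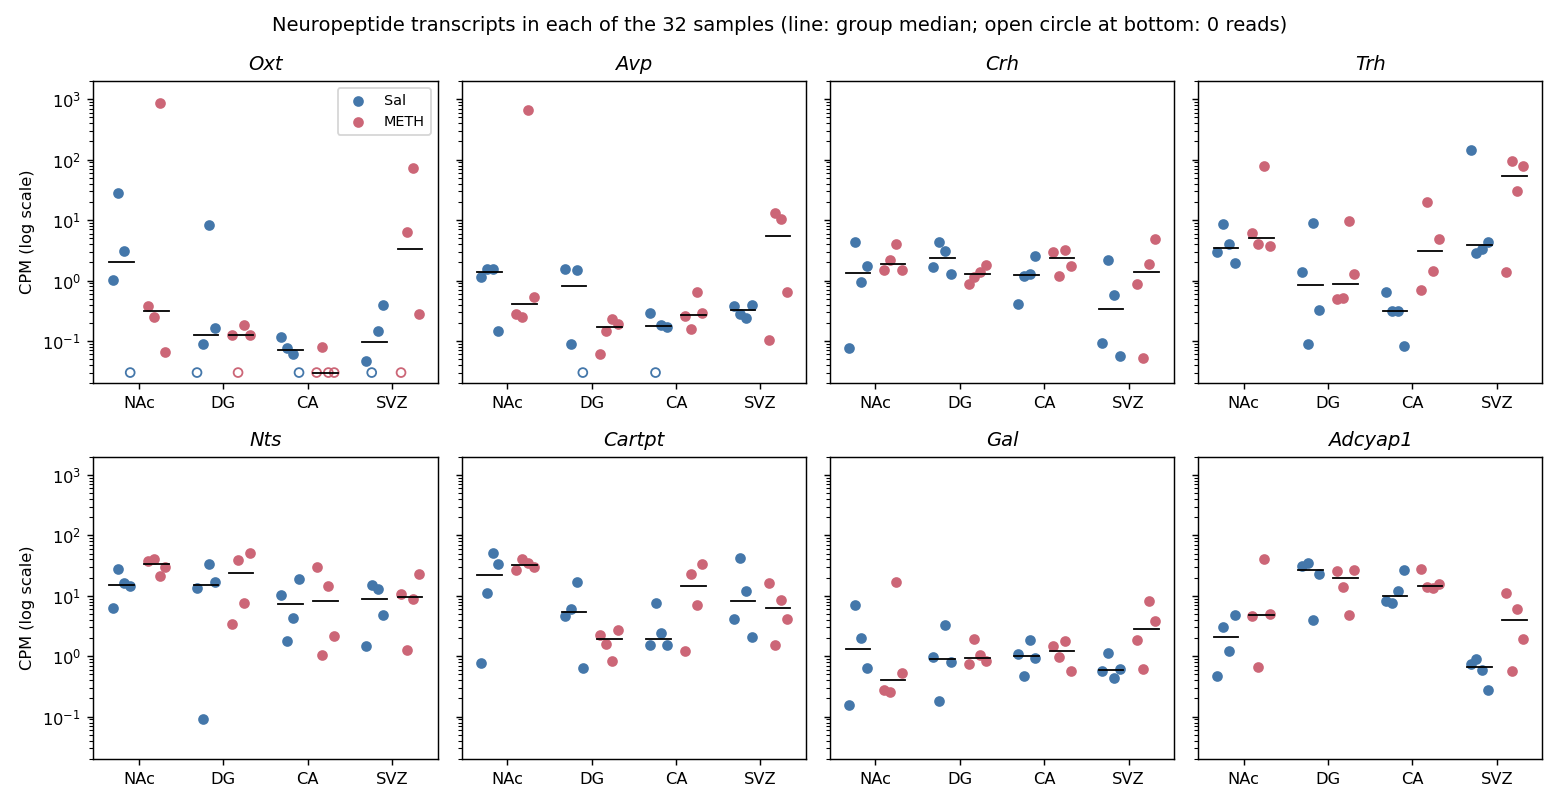
Level of each of the 8 genes (CPM, log scale) in each sample by region, with saline in blue and METH in red, 4 points per group, a line at the group median and open circles for 0 reads. Oxt and Avp reached 866 and 656 CPM in NAc METH 3, Trh reached 146 CPM in SVZ Sal 1, and Nts, Cartpt and Adcyap1 were spread over all regions.

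The saline samples show where each peptide was transcribed without the drug, each region being compared with the other 3 over the 16 saline samples (edgeR quasi-likelihood test, Benjamini-Hochberg adjustment over 15515 genes). These 4 comparisons share the same samples, and samples of different regions were taken as separate though they may share rats. The names of all SVZ libraries in the file headers have a form that no other region has, though their first element is shared with part of the NAc, DG and CA libraries, so the SVZ and whatever that form marks cannot be told apart. A gene was called at an FDR under 0.01 and a fold above 2. With edgeR, 0 of the 8 genes were called in any region, where 0% of all genes were called in the NAc, DG and CA and 0.0387% in the SVZ. Without adjustment, at a p under 0.05, 1 member was higher in the NAc and 0 were lower, beside 4.81% and 5.95% of all genes (10.8% together). In the DG 1 was higher and 0 were lower, beside 2.78% and 1.34% (4.12% together). In the CA 0 were higher and 4 were lower, beside 9.42% and 14.2% (23.6% together). In the SVZ 1 was higher and 2 were lower, beside 12.9% and 8.87% (21.8% together). DESeq2 called Trh in the CA and Adcyap1 in the SVZ. The shares above are those of edgeR, and the share of all genes called by DESeq2 is not given here.

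Adcyap1 was higher in most hippocampal samples than in the NAc and SVZ. Its levels were 30.9, 34.4, 3.98 and 22.8 CPM in DG Sal 1 to 4 and 8.12, 7.72, 12.0 and 26.9 CPM in CA Sal 1 to 4. In the NAc they were 0.463, 3.0, 1.22 and 4.77 CPM and in the SVZ 0.753, 0.889, 0.581 and 0.279 CPM. All 4 CA samples thus lay above all 4 NAc samples, a separation that 21.3% of the 15590 genes with a mean of at least 0.5 CPM in saline showed in either direction, and the single low DG value belonged to the library labelled DG Sal 3. Against the other 3 regions, Adcyap1 was lower in the SVZ, with a log2 fold change of -4.31 ± 1.06 (SE, edgeR quasi-likelihood FDR = 0.0465). The value lay between -4.53 and -4.09 when each of the 16 samples was left out in turn. The DESeq2 FDR was 1.3e-05, for which no share of all genes is given. The SVZ also cannot be told apart from the form of its library names. In the DG the log2 fold change was 2.05 ± 0.87 (edgeR FDR = 0.999), in the NAc -2.33 ± 1.17 (edgeR FDR = 0.474) and in the CA 0.66 ± 1.04 (edgeR FDR = 0.72). DG Sal 1 and Sal 2, the highest of the saline DG, are among the libraries whose numbers fall under the other treatment elsewhere.

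Trh had its highest saline mean in the SVZ, and that mean rested on 1 library. Its levels were 146, 2.81, 3.39 and 4.41 CPM in SVZ Sal 1 to 4, 3.01, 8.73, 4.0 and 1.95 CPM in the NAc, and 1.37, 0.0907, 8.84 and 0.322 CPM in the DG. In the CA they were 0.638, 0.312, 0.309 and 0.0841 CPM, lower than any NAc or SVZ sample. Between the saline CA and NAc, 21.3% of the 15590 genes with a mean of at least 0.5 CPM did not overlap, in either direction. The share against the SVZ was not computed. The fit gave the SVZ a log2 fold change of 3.96 ± 1.01 over the other regions (edgeR FDR = 0.0516), which became 0.52 with a p of 0.616 (edgeR) without SVZ Sal 1. The CA was lower than the other regions by a log2 fold change of -5.46 ± 1.90 (edgeR FDR = 0.109), and by -3.36 without SVZ Sal 1. SVZ Sal 1 is also the library with the highest thalamic sum, whose part in the Trh result was not tested.

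Oxt was high in single saline libraries of the NAc and DG. It had 13, 434, 35 and 0 reads in NAc Sal 1 to 4, and 0, 1, 129 and 2 reads in DG Sal 1 to 4. In the CA the counts were 2, 1, 1 and 0, and in the SVZ 1, 0, 3 and 7. NAc Sal 2 and DG Sal 3 therefore held most of the saline Oxt reads, and the same libraries had the highest hypothalamic sums of the saline NAc and DG (7.56 and 6.56 CPM) and septal sums of 297 and 283 CPM, the highest of all samples. The NAc was above the other regions by a log2 fold change of 3.39 ± 1.29 (edgeR FDR = 0.448), and by 0.76 without NAc Sal 2. For Avp, the saline groups ranged from 2 to 24 reads in the NAc, 0 to 24 in the DG, 0 to 5 in the CA and 5 to 8 in the SVZ, and the NAc log2 fold change was 1.38 ± 0.76 (edgeR FDR = 0.502).

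Nts, Cartpt, Crh and Gal overlapped between the regions. Nts averaged 16.2 ± 8.90 CPM in the NAc, 15.9 ± 13.6 in the DG, 8.95 ± 7.79 in the CA and 8.55 ± 6.45 in the SVZ (SD, n = 4 each). Cartpt averaged 23.9 ± 22.3 CPM in the NAc, 15.1 ± 18.4 in the SVZ, 7.04 ± 6.93 in the DG and 3.25 ± 2.91 in the CA, and the CA was lower than the rest by a log2 fold change of -2.28 ± 1.06 (edgeR FDR = 0.204). The Cartpt range within the NAc, from 0.771 to 50.4 CPM, was wider than any difference between region means. Crh averaged 2.61 ± 1.40 CPM in the DG, 1.77 ± 1.82 in the NAc, 1.35 ± 0.876 in the CA and 0.721 ± 0.984 in the SVZ. Gal averaged 2.44 ± 3.12 CPM in the NAc, 1.31 ± 1.36 in the DG, 1.09 ± 0.576 in the CA and 0.684 ± 0.302 in the SVZ. Over the 8 genes, regions that were neighbours in the order of saline means overlapped in 23 of 24 pairs, the exception being Adcyap1 in the CA and NAc.

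**Figure D2:**
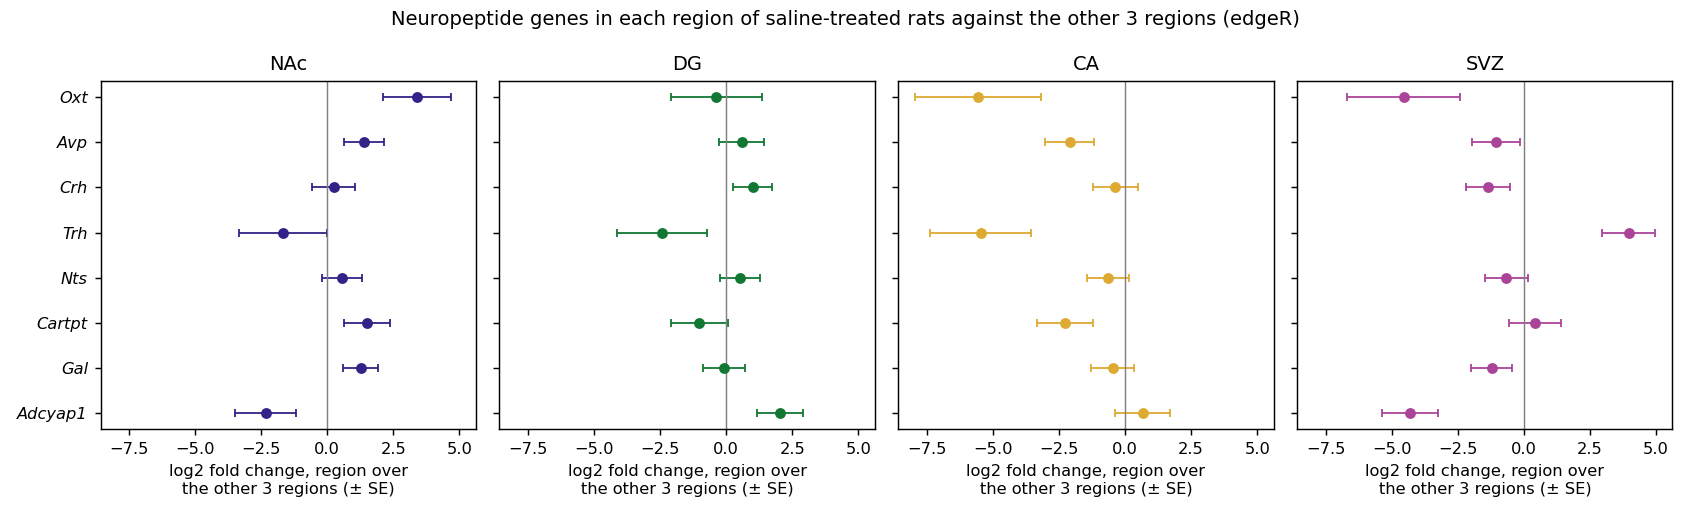
Log2 fold change of each gene in 1 region over the other 3 in saline samples (x axis, edgeR, bars are SE), with 1 panel per region and the genes on the y axis. Adcyap1 (-4.31) and Trh (3.96) in the SVZ and Trh (-5.46) in the CA lie furthest from 0 relative to their errors.

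The effect of METH was tested in each region with the 4 METH and 4 Sal samples. Members with too few reads were not tested, so 7 of the 8 entered the fit in the NAc (all but Gal), 6 in the DG and 6 in the SVZ (all but Oxt and Avp), and 5 in the CA (all but Oxt, Avp and Trh). A call needed an FDR under 0.01 and a fold above 1.5. With edgeR, 0 members were called in any region, as were 0% of all genes, and DESeq2 also called 0 members. Without adjustment, at a p under 0.05, 2 members were higher in the NAc (Avp and Nts) and 0 were lower, beside 2.42% and 0.968% of all genes (3.39% together). In the DG 0 were higher and 2 were lower (Crh and Cartpt), beside 6.35% and 6.42% (12.8% together). In the CA 1 was higher (Cartpt) and 0 were lower, beside 4.37% and 2.79% (7.16% together). In the SVZ 2 were higher (Gal and Adcyap1) and 0 were lower, beside 1.19% and 1.39% (2.58% together). METH and saline ranges did not overlap for 0 of the 8 members in the NAc, DG and SVZ, where 2.3%, 6.8% and 1.69% of tested genes did not overlap, and for 1 member (Trh) in the CA, where 4.44% did not. These shares are over genes that passed the count filter, while the 8 members include those below it, with Trh in the CA among them.

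The library names in the file headers start with a prefix that was not balanced between the treatments. It may mark a sequencing batch, but the labels do not say what it stands for, and the prefixes are called A to D here. In the NAc, saline samples 1 and 2 had prefix A, samples 3 and 4 and METH 1 and 2 prefix C, and METH 3 and 4 prefix B. In the DG prefix A, and in the CA prefixes B and C, held both treatments, while all SVZ samples had prefix D, and CA Sal 1 and 2 had names of merged libraries with none of these. Values within a prefix are given beside the members named above.

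In the NAc, the largest differences came from NAc METH 3. Oxt had 4, 3, 12725 and 1 reads in NAc METH 1 to 4 against 13, 434, 35 and 0 reads in NAc Sal 1 to 4. Avp had 3, 3, 9646 and 8 reads against 15, 24, 18 and 2 reads. The remaining 3 METH samples thus held fewer Oxt and Avp reads than most saline samples, and the groups overlapped for both genes. Most saline Oxt reads were in NAc Sal 2, which had the highest hypothalamic sum of the saline NAc (7.56 CPM). No fit left out both NAc Sal 2 and NAc METH 3. The log2 fold change was 4.74 ± 2.56 for Oxt (edgeR FDR = 0.999) and 7.25 ± 2.60 for Avp (edgeR FDR = 0.999). Without NAc METH 3 the direction turned for both, to -5.18 ± 1.96 for Oxt and -1.55 ± 0.72 for Avp (edgeR FDR = 0.944). Trh, at 6.07, 3.96, 77.6 and 3.67 CPM with METH and 1.95 to 8.73 CPM with saline, had a log2 fold change of 2.39 ± 1.08 (edgeR FDR = 0.999) that became 0.04 ± 0.49 without the same library. Adcyap1, at 4.58, 0.675, 40.2 and 4.94 CPM with METH and 0.463 to 4.77 CPM with saline, went from 2.43 ± 1.12 to 0.52 ± 0.79. Gal was at 16.7 CPM in NAc METH 3 and at 0.253 to 0.534 CPM in the other METH samples, within the saline range of 0.154 to 6.97 CPM. The level of each of these 5 genes in NAc METH 3 stood beside the hypothalamic sum of 114 CPM and the low striatal sum given above, whose part in the values was not tested. With the prefix as a covariate, which leaves prefix C to carry the comparison, Oxt (-2.17), Avp (-1.56), Cartpt (-0.28) and Adcyap1 (-0.22) also turned, and Trh was at 0.78.

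Nts, which striatal neurons make themselves, did not rest on NAc METH 3. It was at 37.3, 41.1, 21.3 and 29.6 CPM in NAc METH 1 to 4 and at 6.32, 27.9, 16.3 and 14.4 CPM in NAc Sal 1 to 4. Of the METH samples, 3 lay above every saline sample, and NAc METH 3 was the lowest of the group. The log2 fold change was 1.00 ± 0.40 (edgeR FDR = 0.999) and 1.16 ± 0.41 without NAc METH 3, and it stayed between 0.73 and 1.41 when any of the 8 samples was left out. Within prefix C, METH 1 and 2 (37.3 and 41.1 CPM) lay above Sal 3 and 4 (16.3 and 14.4 CPM), and the fit with the prefix gave 1.37. Cartpt was at 26.3 to 41.4 CPM with METH and at 0.771 to 50.4 CPM with saline, so that the METH samples lay closer together inside the saline range (log2 fold change 0.51 ± 0.81). Crh was at 1.47 to 3.95 CPM with METH and 0.0771 to 4.30 CPM with saline (log2 fold change 0.36 ± 0.77).

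**Figure D3:**
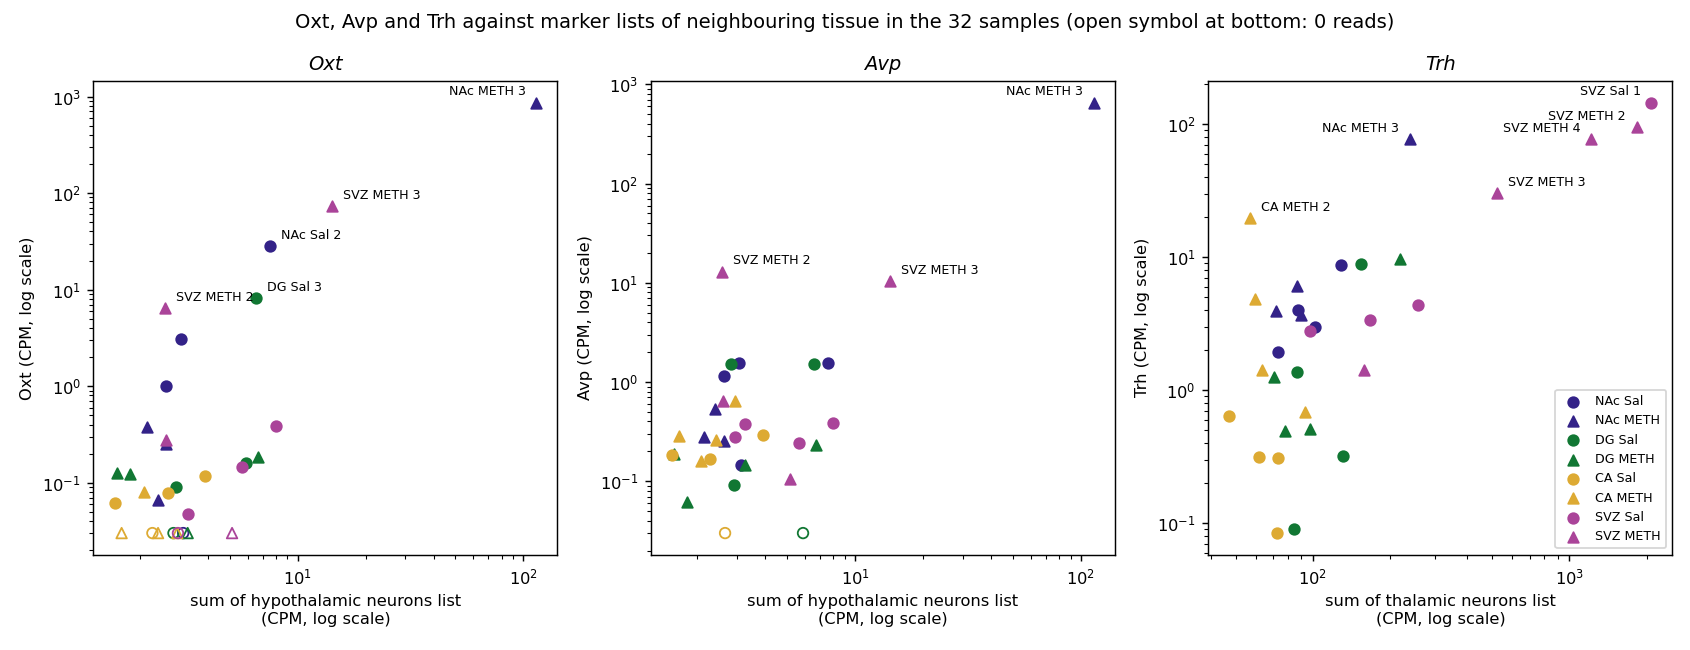
Level of Oxt, Avp and Trh (y axis, CPM, log scale) against the summed level of marker genes of hypothalamic or thalamic neurons (x axis, CPM, log scale) in the 32 samples, with a colour per region, circles for saline, triangles for METH and open symbols for 0 reads. NAc METH 3 (114 CPM hypothalamic) has the highest Oxt and Avp, and SVZ Sal 1, METH 2 and METH 4 (over 1000 CPM thalamic) have 3 of the 4 highest Trh values.

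In the SVZ, Adcyap1 and Gal were higher with METH in the fit. Adcyap1 was at 11.0, 0.567, 6.02 and 1.95 CPM in SVZ METH 1 to 4 and at 0.753, 0.889, 0.581 and 0.279 CPM in SVZ Sal 1 to 4. Of the METH samples, 3 lay above every saline sample and SVZ METH 2 lay among them. SVZ METH 1, with the highest value, had a thalamic sum of 159 CPM and a hypothalamic sum of 5.12 CPM. The log2 fold change was 2.97 ± 0.86 (edgeR FDR = 0.979), and it was 2.20 to 3.34 when each sample was left out in turn. Without the 3 libraries with a thalamic sum above 1000 CPM it was 3.85 ± 0.50 (edgeR FDR = 0.61), with 2 METH and 3 saline samples left. Gal was at 1.83, 0.618, 8.05 and 3.85 CPM with METH and at 0.565, 1.12, 0.436 and 0.614 CPM with saline, again with 3 METH samples above the saline range. Its log2 fold change was 2.41 ± 0.75 (edgeR FDR = 0.979), 1.61 ± 0.63 without SVZ METH 3 and 2.79 ± 0.71 without the 3 libraries with the high thalamic sum.

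Oxt, Avp and Trh were spread widely in the SVZ. Oxt had 0, 124, 1669 and 6 reads in SVZ METH 1 to 4 and 1, 0, 3 and 7 reads in SVZ Sal 1 to 4. Avp had 2, 252, 234 and 14 reads with METH and 8, 6, 5 and 7 reads with saline. SVZ METH 2 and METH 3 were high for both, while SVZ METH 1 was at or near the bottom for both. SVZ METH 3 had 7.13 Oxt reads for each Avp read and SVZ METH 2 had 0.492, against 1.32 in NAc METH 3, 18.1 in NAc Sal 2 and 5.38 in DG Sal 3. Neither gene passed the count filter in the SVZ, and exact permutation tests of log2(CPM + 1) gave a p of 0.257 for Oxt and 0.171 for Avp (two-sided, 4 against 4, smallest possible p 0.0286). Without the filter, the log2 fold change was 7.13 ± 2.17 for Oxt and 4.20 ± 1.23 for Avp, with unadjusted p-values of 0.00943 and 0.00784 (edgeR FDR = 0.899 for both). The exact tests belong to a set of 8, for the members outside the fits, that was added after the values were seen, and both adjusted p-values were 0.533 (exact permutation, Benjamini-Hochberg). In the same set, Gal in the NAc had a p of 1, Oxt and Avp in the DG 0.743 and 0.400, and Oxt and Avp in the CA 0.371 and 0.286 (exact permutation tests), with adjusted values of 0.533 to 1.

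Trh in the SVZ was at 1.41, 94.9, 30.4 and 77.8 CPM with METH and at 146, 2.81, 3.39 and 4.41 CPM with saline. The high METH samples were matched by the single saline sample SVZ Sal 1, so the log2 fold change was 0.41 ± 1.49 (FDR = 0.984, edgeR). It was 1.69 with 2 RUVr factors of unwanted variation (edgeR FDR = 0.149). It was 3.85 ± 1.17 without SVZ Sal 1 and 2.21 ± 1.02 without all 3 libraries with the high thalamic sum (edgeR FDR = 0.27 and 0.77). The thalamic sums of the 4 METH samples were 159, 1827, 524 and 1215 CPM, so that the samples stood in the same order by thalamic sum as by Trh. The part of thalamic tissue in the Trh values was not tested. Crh was at 0.0515 to 4.92 CPM with METH and 0.0558 to 2.15 CPM with saline (log2 fold change 1.42 ± 1.24). Nts (0.36 ± 0.87) and Cartpt (-0.97 ± 0.99) overlapped between METH and saline as well.

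In the hippocampus, the fitted METH effects on Cartpt had opposite signs in the 2 subregions, without passing the test in either. In the CA it was at 1.20, 22.6, 7.02 and 34.1 CPM in CA METH 1 to 4 and at 1.51, 7.56, 2.41 and 1.51 CPM in CA Sal 1 to 4. The METH group thus held both the highest values and the lowest one, with a log2 fold change of 2.34 ± 0.89 (edgeR FDR = 0.669) that was 1.67 without CA METH 4. Within prefix B the values were 7.02 and 34.1 CPM with METH and 2.41 CPM with saline, and within prefix C 1.20 and 22.6 against 1.51 CPM, with a log2 fold change of 3.04 in the fit with the prefix. In the DG, Cartpt was at 2.23, 1.59, 0.828 and 2.72 CPM with METH and at 4.58, 6.07, 16.9 and 0.644 CPM with saline. The log2 fold change in the DG was -1.93 ± 0.80 (edgeR FDR = 0.37), and -0.99 ± 0.67 without the library labelled DG Sal 3, which held the highest Cartpt value of the DG and is also the single saline sample of prefix A, the prefix of DG METH 1 and 2. It was -3.16 with the prefix as a covariate, and -2.33 ± 1.57 (edgeR FDR = 0.788) without the 4 libraries with crossed numbers. Marker lists of other cells also differed in the DG, with few genes at an unadjusted p under 0.05 (edgeR). Of all genes tested there, 6.42% were lower and 6.35% higher at that level. The striatal list had the largest median shift of the lists, -2.24 in log2 over 7 genes, with 0 at that level. Medians were -1.13 for the septal list (2 of 5 tested genes lower) and 1.37 for the CA pyramidal list (1 of 3 higher). The choroid plexus list was at 1.43 (0 of 5). The 7 cortical genes summed to 604, 942, 130 and 359 CPM in DG Sal 1 to 4 and to 170, 285, 209 and 225 CPM in DG METH 1 to 4, with 1 gene lower at an unadjusted p under 0.05 and a median log2 fold change of -1.24. The 4 dentate granule genes summed to 237, 50.8, 49.0 and 100 CPM with saline and to 463, 398, 82.6 and 315 CPM with METH, with 1 gene higher and a median of 1.55. In the CA the granule list went the other way, from a median sum of 263 CPM with saline to 122 CPM with METH. There, 2 of its 4 genes were lower at an unadjusted p under 0.05 (edgeR), beside 2.79% of all genes, with a median of -0.90. The part of these differences in the DG and CA values of Cartpt, and in the lower DG values of Crh and Crhr1, was not tested. The test of whether the 4 regional METH effects were equal gave a p of 0.0362 for Cartpt (edgeR FDR = 0.603), beside 7.74% of all 16122 genes at a p under 0.05, and a p of 0.062 (edgeR FDR = 0.476) without the 5 libraries with a hypothalamic sum above 10 CPM or a thalamic sum above 1000 CPM.

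Among the members, Trh in the CA was the single case in which METH and saline samples were fully apart. Of the genes tested in the CA 4.44% did not overlap, but Trh was not one of them. The share among genes below the count filter was not computed. It was at 0.687, 19.6, 1.43 and 4.83 CPM in CA METH 1 to 4 (8, 245, 22 and 67 reads) and at 0.638, 0.312, 0.309 and 0.0841 CPM in CA Sal 1 to 4 (11, 4, 5 and 1 reads). The lowest METH and the highest saline sample differed by less than the value of 1 read. Within prefix B the METH samples were at 1.43 and 4.83 CPM and the saline sample at 0.309 CPM, and within prefix C at 0.687 and 19.6 against 0.0841 CPM. The gene was below the count filter, and the exact permutation test of log2(CPM + 1) gave a p of 0.0286 (two-sided), the smallest that 4 against 4 samples allow, and 0.229 after adjustment over the set of 8. Without the filter the log2 fold change was 4.19 ± 1.01 (edgeR FDR = 0.765). The thalamic sum in the same 8 samples was 47.3 to 93.2 CPM and the hypothalamic sum 1.54 to 3.88 CPM, with CA METH 2, the highest in Trh, at 57.1 and 2.1 CPM. The septal sum was 103 and 99.5 CPM in CA METH 2 and METH 4, the 2 samples highest in Trh and Cartpt, against 61.0 to 90.9 CPM in CA Sal 1 to 4. The choroid plexus sum was 359 CPM in CA METH 2, and the highest one of the CA was 2191 CPM in CA Sal 2. The part of septal or choroid plexus tissue was not tested.

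The other peptides of the hippocampus gave smaller differences. Crh, which hippocampal interneurons also make, was at 0.868, 1.16, 1.38 and 1.83 CPM in DG METH 1 to 4 and at 1.69, 4.35, 3.09 and 1.29 CPM in DG Sal 1 to 4. Its log2 fold change in the DG was -0.96 ± 0.42 (edgeR FDR = 0.387), -0.63 without DG Sal 2, -1.63 with the prefix as a covariate, and -0.47 ± 0.56 (edgeR FDR = 0.885) without the 4 libraries with crossed numbers. In the CA it was 0.80 ± 0.51 (FDR = 0.737, edgeR). Adcyap1 was at 13.8 to 26.7 CPM in 3 DG METH samples and 4.78 CPM in DG METH 3, which had a choroid plexus sum of 6040 CPM, so that each treatment held 1 low sample (log2 fold change -0.35 ± 0.66, and 2.28 with the prefix as a covariate, which rests on DG Sal 3). Without the 4 libraries with crossed numbers it was 0.20 ± 1.17. In the CA, Adcyap1 was at 13.5 to 27.9 CPM with METH and 7.72 to 26.9 CPM with saline (0.38 ± 0.41). Nts ranged from 3.47 to 50.8 CPM with METH and from 1 read to 33.1 CPM with saline in the DG, and from 1.04 to 30.0 and 1.79 to 19.3 CPM in the CA, with log2 fold changes of 0.66 ± 1.11 and 0.42 ± 0.96. Trh in the DG was at 0.496, 0.506, 9.75 and 1.27 CPM with METH and at 1.37, 0.0907, 8.84 and 0.322 CPM with saline (0.19 ± 1.33), and became 2.38 without DG Sal 3 and -1.84 without DG METH 3, the 2 high samples, and -4.14 with the prefix as a covariate. Without the 4 libraries with crossed numbers Trh was at 0.27, Nts at 0.20 and Gal at -1.13 in the DG. Gal lay between 0.181 and 3.28 CPM in all 16 hippocampal samples (-0.23 ± 0.71 in the DG and 0.13 ± 0.46 in the CA).

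**Figure D4:**
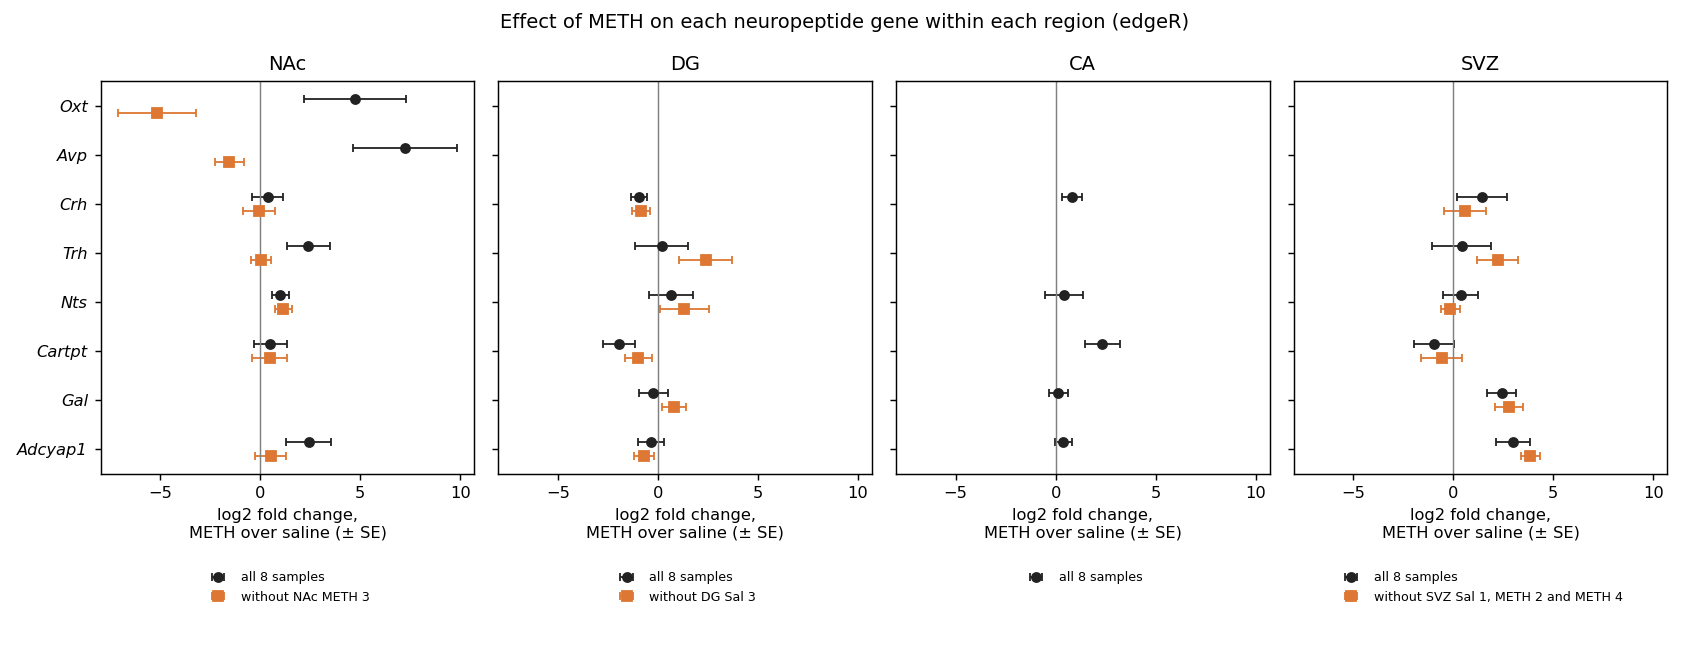
Log2 fold change of METH over saline (x axis, edgeR, bars are SE) for each gene (y axis) in each region, from all 8 samples (black circles). Orange squares leave out NAc METH 3 in the NAc, DG Sal 3 in the DG, and SVZ Sal 1, METH 2 and METH 4 in the SVZ. The CA has black circles only. Libraries kept in the orange fits still carried markers of other tissue, such as choroid plexus in SVZ METH 3 (7975 CPM) and DG METH 3 (6040 CPM). A gene with no point did not pass the count filter. In the NAc, Oxt moves from 4.74 to -5.18 and Avp from 7.25 to -1.55 without NAc METH 3, while Nts moves from 1.00 to 1.16. NAc Sal 2, with most of the saline Oxt reads of the NAc (434 reads), is kept in that fit.

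Averaged over the 4 regions in a fit of all 32 samples, Adcyap1 had a log2 fold change of 1.35 ± 0.44 (edgeR FDR = 0.516) and Trh of 1.79 ± 0.74 (edgeR FDR = 0.567), the 2 of the 8 members at an unadjusted p under 0.05. Both were higher with METH and 0 members were lower, beside 4.29% and 3.54% of all genes (7.83% together). The fits across regions took every sample as separate, though samples of different regions may come from the same rat. Their errors and p-values may therefore be too small or too large. Without the 5 libraries with a hypothalamic sum above 10 CPM or a thalamic sum above 1000 CPM, Adcyap1 was at 1.18 (edgeR FDR = 0.597) and Trh at 0.78 (edgeR FDR = 0.813). In that fit the SVZ kept a single METH sample, which is assumed to vary like the other groups. Avp (2.55 ± 1.26), Gal (0.79 ± 0.53), Nts (0.60 ± 0.50), Crh (0.40 ± 0.44), Oxt (1.55 ± 4.18) and Cartpt (-0.03 ± 0.48) had p-values from 0.0528 to 0.958. For Adcyap1 the test of equal regional effects gave a p of 0.0413 (edgeR FDR = 0.62), with 2.43 in the NAc, 2.97 in the SVZ, 0.38 in the CA and -0.35 in the DG. The same test gave a p of 0.0271 for Oxt and 0.0153 for Avp (edgeR FDR = 0.573 and 0.503). With Cartpt, 4 of the 8 members were thus at an unadjusted p under 0.05, beside 7.74% of all genes, and with edgeR 0 passed an FDR of 0.01. Without the 5 libraries these p-values were 0.915 and 0.0943 (edgeR), that of Cartpt was 0.062 and that of Trh, 0.256 in all samples, was 0.0417 (edgeR FDR = 0.431), while that of Adcyap1 was 0.011 (edgeR FDR = 0.304).

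The receptors, binding proteins and sister ligands of the 8 peptides form a list of 25 genes, of which 22 are in the files and 14 or 15 entered each METH fit. With edgeR, 0 of them passed an FDR of 0.01 in any region. Without adjustment, at a p under 0.05, 1 gene of the list was higher in the NAc (2.42% of all genes were), 2 were lower in the DG (6.42%), 1 was higher in the CA (4.37%) and 1 was higher in the SVZ (1.19%). The medians of the list's log2 fold changes were 0.05, -0.35, 0.57 and 0.02 in the regions named in that order, beside 0.03, -0.01, 0.01 and 0.02 over all genes tested.

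Crhr1, the main receptor of Crh, was at 2.85, 2.31, 2.30 and 1.27 CPM in DG METH 1 to 4 and at 5.79, 16.9, 5.05 and 5.15 CPM in DG Sal 1 to 4. All METH samples lay below all saline samples, as 6.8% of tested genes did not overlap in the DG, and the log2 fold change was -1.87 ± 0.45 (edgeR FDR = 0.185). Within prefix A, the METH samples were at 2.85 and 2.31 CPM and the saline sample at 5.05 CPM. Outside the 4 libraries with crossed numbers, METH 3 and 4 lay below Sal 3 and 4. Its ligand Crh had a lower fitted value in the same region, while Crhr1 averaged 5.72 and 5.70 CPM with saline and METH in the NAc and 3.78 and 3.81 CPM in the SVZ. Ntsr1, the high-affinity neurotensin receptor, was at 0.992, 0.361, 1.06 and 0.190 CPM in DG METH 1 to 4 and at 3.86, 0.816, 6.63 and 2.09 CPM in DG Sal 1 to 4, with an overlap at DG Sal 2 (-2.32 ± 0.72, FDR = 0.263, edgeR). Crhr1 was highest in DG Sal 2, which had the highest cortical sum of all samples (942 CPM), and Ntsr1 was highest in the library labelled DG Sal 3. The part of these libraries in the receptor values was not tested. Avpr2, the vasopressin receptor best known from the kidney, was at 1.77 to 2.43 CPM with METH and 1.11 to 1.95 CPM with saline in the NAc (0.56 ± 0.24, FDR = 0.999, edgeR).

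Galr1, a galanin receptor, was at 2.04, 1.34, 3.19 and 3.53 CPM in SVZ METH 1 to 4 and at 0.471, 1.26, 1.26 and 1.78 CPM in SVZ Sal 1 to 4 (1.09 ± 0.46, FDR = 0.979, edgeR). Both Galr1 and its ligand Gal had an unadjusted p under 0.05 there, and SVZ METH 2 was the lowest METH sample for both. Vip, a relative of PACAP made by interneurons, was at 14.2 to 24.7 CPM with METH and 6.03 to 19.5 CPM with saline in the CA (0.74 ± 0.31, FDR = 0.688, edgeR). Adcyap1r1, the specific PACAP receptor, was abundant in every region, with group means from 234 to 312 CPM. Sort1, the sorting receptor that also binds neurotensin, averaged 615 to 1059 CPM, Ntsr2 60.9 to 84.4 CPM and Trhde, the enzyme that degrades TRH, 19.5 to 73.2 CPM. Vipr2 reached 14.7 and 24.1 CPM in saline and METH samples of the SVZ with SDs of 22.1 and 23.7 CPM, and Crhbp, which binds CRH, 12.2 ± 4.45 CPM in the METH samples of the CA.

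The enzymes that process peptide precursors were measured as 6 genes, of which 5 entered the fits, and with edgeR 0 passed an FDR of 0.01. Pcsk1, a prohormone convertase, was at 2.90 to 4.90 CPM with METH and 1.39 to 3.54 CPM with saline in the DG (0.77 ± 0.31, FDR = 0.349, edgeR). Pcsk2, the second convertase, was at 261 to 340 CPM with METH and 313 to 380 CPM with saline in the CA (-0.24 ± 0.10, FDR = 0.686, edgeR). Averaged over the regions, Scg5, a chaperone of Pcsk2, had a log2 fold change of -0.16 ± 0.07 (FDR = 0.567, edgeR). Cpe (1032 to 1768 CPM), Pam (232 to 301 CPM) and Scg5 (192 to 243 CPM) varied less between group means than the peptides themselves. The medians of this list were -0.07 in the NAc, 0.26 in the DG, 0.03 in the CA and -0.28 in the SVZ.

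Genes whose levels ran most like each peptide were sought over the 32 samples, as Pearson's r of log2(CPM + 1) among genes with a mean of at least 0.5 CPM. The samples share region, dissection and depth, so these values are descriptions. Oxt ran most like Lhx5 (r = 0.911), Sim1 (0.909), Avp (0.905), Otp (0.901) and Gpx3 (0.844), and Avp most like Otp (0.924), Sim1 (0.919), Oxt (0.905), Pomc (0.877) and Lhx5 (0.817). Without NAc METH 3, the r of Oxt and Avp was 0.801 and remained the highest for both, that of Avp and Pomc fell from 0.877 to 0.481, and Lhx5, Sim1 and Otp fell below the minimum level. Gal ran most like Oxt (0.820), Cd38 (0.782), which is needed for oxytocin release, Sim1 (0.773), Gpx3 (0.766) and Otp (0.764), and Oxt stayed first without NAc METH 3 at 0.699.

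Trh ran most like Mid1ip1 (0.897), Fign (0.886), Foxb1 (0.879), Eci3 (0.872) and Fam19a4 (0.871), and Mid1ip1, Fign and Foxb1 kept their order without NAc METH 3. Foxb1 is a transcription factor of the developing diencephalon. Adcyap1 ran most like Kcnc4 (0.888), Golga7b (0.882), Tbc1d1 (0.867), Chrd (0.853) and Phlpp2 (0.852), and Cartpt like Cdh4 (0.811), Ap1s2 (0.805), Abcb6 (0.803), Glra3 (0.786) and Zfp28 (0.776). Nts was most like Tac3 (0.726), a tachykinin gene, followed by LOC102547287 (0.715), Rab27b (0.667), Lrp2bp (0.646) and Stac (0.637). Crh had the lowest likeness, with Insyn2 (0.698), LOC100910996 (0.644), Rbm11 (0.634), AABR07066416.1 (0.625) and Camk1g (0.603).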

How the data were processed

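Total RNA from the 32 samples was sequenced, and the values are read counts per gene deposited by the authors with 1 table per sample. Per the labels and the study's methods, reads were trimmed with cutadapt 2.7, checked with FastQC 0.11.4, aligned to rn6 with STAR 2.5.2b and counted with featureCounts, keeping a mapping quality of at least 10. The deposited file headers name featureCounts 1.6.3 with the Ensembl Rnor_6.0 annotation of release 95 and no strand, whereas a UCSC annotation is given in the methods. Reads counted without strand can include antisense reads. A table of the whole series with 32 columns of per-sample values was not used here.

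Counts were fitted with the quasi-likelihood test of edgeR 4.0.16 (limma 3.58.1, R 4.3.3) after the filter of filterByExpr and upper-quartile normalization, with Benjamini-Hochberg adjustment over all genes tested. METH was compared with saline within each region, each saline region with the other 3, and the METH effects in a fit of all 32 samples. CPM uses upper-quartile library sizes, and a pseudocount of 1 (0.1 as an alternative) was added for logarithms. The depth of 11094002 to 21869773 counts per sample (median 14533166.5) makes 1 read worth 0.0457 to 0.0901 CPM on total counts, before the upper-quartile scaling. Levels near that value rest on single reads. Alternatives were DESeq2 1.42.0, TMM, no filter, the replicate number as a block, 2 RUVr factors, the prefix of the library names as a covariate, all 32 samples in 1 fit and leaving out each sample. Fits without the libraries that carried thalamic or hypothalamic markers, fits without the 4 DG libraries whose header numbers fall under the other treatment elsewhere, likeness without NAc METH 3, and exact permutation tests of members under the filter were added after seeing the data. The procedure was tested on simulated data.

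The members and gene lists were chosen with earlier results of these data known. The text names all 8 members, the listed receptor, ligand and processing genes at an unadjusted p under 0.05 with METH or above 10 CPM in a region, and the 5 genes most like each member. Exact tests used scipy 1.17.1, plots matplotlib 3.10.9, and tables pandas 2.3.3 with numpy 2.4.6 in Python 3.11.15. Replicate numbers do not mark shared rats in the labels. Deviations of same-numbered METH and saline samples from their group means, over 14462 genes, correlated at -0.78 to 0.42 in 16 pairs, 7 of them over 0.1, so the numbers were not taken to pair the samples. No pair of replicates was alike enough to be 1 library, which does not show that they came from separate rats.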

Additional observations from a re-analysis of the deposited data

Results flagged for a closer look

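In 13 of the 64 groups of 4 samples (8 genes, 8 groups), 1 sample stood further from the others than Dixon's 95% critical value for 4 samples allows. Chance gives about 1 such group in 20 for normally distributed values, and levels near 0 reads are skewed, so that rate need not hold here. Of these, 5 came from NAc METH 3, which had Oxt at 866 CPM, Avp at 656 CPM, Trh at 77.6 CPM, Gal at 16.7 CPM and Adcyap1 at 40.2 CPM. The library labelled DG Sal 3 stood apart with Oxt at 8.14 CPM and Trh at 8.84 CPM. Oxt also stood apart in NAc Sal 2 at 28.3 CPM and in SVZ METH 3 at 73.8 CPM. Trh stood apart in DG METH 3 at 9.75 CPM and in SVZ Sal 1 at 146 CPM. In the CA, Cartpt stood apart in Sal 2 at 7.56 CPM and Adcyap1 in METH 1 at 27.9 CPM. The sums of neighbouring-tissue markers in these libraries are given beside the results, and for CA Sal 2 and DG METH 3 the choroid plexus sums were 2191 and 6040 CPM. The part of neighbouring tissue in these values was not tested.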

How the results depend on the processing

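Of 359 member values and counts recomputed under other settings than leaving out a sample, 27 changed direction and 2 were called. DESeq2 called 1 member in the saline CA (Trh, -3.31, FDR = 0.00147) and 1 in the saline SVZ (Adcyap1, -4.38, FDR = 1.3e-05), and turned Trh in the saline NAc to 1.10. The share of all genes that DESeq2 called is not given, so these calls have no background beside them. With the library name prefix as a covariate, the METH effect turned in the NAc for Oxt (-2.17), Avp (-1.56), Cartpt (-0.28) and Adcyap1 (-0.22), in the DG for Trh (-4.14), Nts (-0.65) and Adcyap1 (2.28), and in the CA for Gal (-0.18) and Adcyap1 (-0.0607). With 2 RUVr factors Gal in the DG turned to 0.27, Trh in the SVZ moved from 0.41 to 1.69, and Oxt and Avp in the NAc moved from 4.74 and 7.25 to 1.08 and 3.20. Comparing each region with the mean of the other 3 turned Trh in the saline NAc (0.41), and Oxt (2.27) and Gal (0.12) in the saline DG. Without the 3 thalamic libraries Nts in the SVZ turned to -0.15, and without the 4 DG libraries with crossed numbers Adcyap1 in the DG turned to 0.20. Without the 5 libraries the averaged effect turned for Oxt (-3.81), Avp (-1.07), Crh (-0.0839), Cartpt (0.16) and Gal (-0.38). The cause was not tested.

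The replicate block called 0 members (edgeR, FDR under 0.01) in any comparison. The samples share only a number, and under the block Gal with METH in the DG was at 0.0345, Crh and Trh in the saline NAc at -0.11 and 0.53, Oxt and Gal in the saline DG at 0.37 and 0.13, and the averaged Cartpt effect at 0.22, all turned. Oxt and Avp with METH in the NAc were at 0.0280 and 2.29, and Trh in the SVZ at 3.02. Adcyap1 in the SVZ was at 2.52 with METH and at -4.18 in the saline comparison. Same-numbered saline samples of different regions correlated at -0.29 to 0.27 over 24 pairs.

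Leaving out 1 sample gave 948 values, of which 40 turned and 0 were called. METH effects that turned ranged from -5.18 to 7.43 (Oxt), -1.55 to 7.66 (Avp) and -0.0675 to 1.32 (Crh) in the NAc, from -1.84 to 2.38 (Trh) and -0.60 to 0.80 (Gal) in the DG, from -0.55 to 1.08 (Nts) and -0.16 to 0.52 (Gal) in the CA, and from -0.0715 to 3.85 (Trh), -0.29 to 0.78 (Nts) and -1.66 to 0.33 (Cartpt) in the SVZ. Saline comparisons ranged from -0.70 to 0.65 (Crh), -2.25 to 1.09 (Trh) and -0.15 to 1.67 (Gal) in the NAc, from -4.95 to 0.0329 (Oxt), -0.15 to 0.92 (Nts) and -1.11 to 0.58 (Gal) in the DG, from -0.86 to 0.13 (Gal) in the CA and from -0.88 to 0.95 (Cartpt) in the SVZ. Averaged effects ranged from -0.92 to 2.71 (Oxt), -0.20 to 0.30 (Cartpt) and -0.11 to 1.15 (Gal). Of the 5 genes most like each member, those kept without NAc METH 3 were 2 for Oxt, 1 for Avp, 3 for Cartpt, 2 for Gal and 2 for Adcyap1, and with a pseudocount of 0.1 they were 2 for Crh, 3 for Cartpt and 3 for Gal.

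Depth limits Oxt and Avp, which had 3 reads or fewer in 21 and 14 of the 32 samples, and with 4 samples a group an exact test cannot go below a p of 0.0286.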
